A study of Mus musculus with 20 samples.

Results

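The liver X receptors (LXR) and the genes through which macrophages export cholesterol were followed here in mouse bone marrow-derived macrophages grown with or without SGC0946, an inhibitor of the histone methyltransferase DOT1L. The set holds 9 genes chosen by symbol, out of 24342 symbols in the count table. It consists of the receptors Nr1h2 (LXR beta) and Nr1h3 (LXR alpha) and of Abca1, Abcg1, Apoe, Arl4c, Lpcat3, Pltp and Smpdl3a, which are listed as targets. Of these, Pltp and Smpdl3a did not pass with the LXR agonist in these cells, and Apoe passed in some fits only. All 9 passed the filter on low counts, with 84 counts or more in every library. Bone marrow of C57BL/6 mice was grown with 15% L929-conditioned medium as the source of M-CSF for 7 to 8 days, and 1 µM SGC0946 or the vehicle DMSO was present during that time. The groups were SGC0946+GW3965 and DMSO+GW3965 (2 µM of the synthetic LXR agonist GW3965 for 17 h, n = 3 each), SGC0946+LPS and DMSO+LPS (10 ng/mL bacterial lipopolysaccharide for 3 h, n = 3 each), and unstimulated SGC0946 and DMSO cells (n = 4 each). The deposited sample sheet gives each library a mouse, numbered 1 to 4, and mice 1 to 3 are present in all 6 groups. The age and sex of the mice are not given in the labels. All cells are primary cultures of wild-type marrow, and every group shares the M-CSF source. Because SGC0946 was present while the cells differentiated, its effects on differentiation and on the grown cells cannot be told apart.

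LXRs are nuclear receptors that bind DNA as heterodimers with the retinoid X receptors (RXR). Oxysterols and desmosterol, which accumulate when a cell is loaded with cholesterol, are their natural ligands. Without ligand the receptors can sit on DNA with corepressors, and with ligand they recruit coactivators. In macrophages their best known targets are the ABC transporters ABCA1 and ABCG1, which pass cholesterol to apolipoprotein A-I and to HDL, and this efflux limits foam cell formation in the artery wall.

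LXR and RXR bind a direct repeat of the half-site AGGTCA with 4 bases of any kind in between (AGGTCA, 4 bases, AGGTCA), so that 12 letters are fixed. The best match to this motif on either strand was looked up in the RefSeq promoter windows of build GRCm38.p6 (250 bases before and 50 after a transcript start). A window was available for 7 of the 9 genes (10 windows in all). The best matches of 3 genes that rose with the agonist, Abca1, Arl4c and Lpcat3, and of the receptor Nr1h2, which did not pass the test, are given here with 7 flanking bases on each side and the 16-base match in capitals.
Abca1: agcgccgGGGTTACTACCGGTCAaacgctg
Arl4c: tctcccgGGGTCAGGCGGGGTCTtctcggt
Lpcat3: cgcagcaAGGTAGGAAGAGGGCGgggccga
Nr1h2: agaaaaaAGTTCCGGAAAGTTCTttcgttt
The Abca1 match lies at chr4:53159940-53159969, plus strand, 67 to 52 bases before the start of its window's transcript. The Arl4c match lies at chr1:88702244-88702273, plus strand, 75 to 60 bases before the start. Both hold 9 of the 12 fixed letters. The printed Abca1 bases fall inside the Abca1 span given below, so the start used there is not the outer end of that gene. The Lpcat3 match at chr6:124662998-124663027, minus strand, and the Nr1h2 match at chr7:44554082-44554111, plus strand, hold 8. Of all 32851 windows 21.9% hold a match of 9 letters or more and 76.9% one of 8 or more, so such matches are frequent. A match of 10 or more letters, present in 3.02% of all windows, was found in no window of the 9 genes. The 9-letter limit was chosen after that. Distant enhancers, through which LXR is known to act at several of these genes, lie outside the windows.

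The genes lie on 7 chromosomes of build GRCm38. The receptor Nr1h3 spans chr2:91184061-91202829 and Nr1h2 spans chr7:44549616-44553968, both on the minus strand. Abca1 covers chr4:53030789-53159988 with 50 merged exons, and Abcg1 covers chr17:31057694-31117984 with 16. In the gene annotation Pltp shares 19.3% of its exon length with Ctsa and Lpcat3 shares 10.2% with Emg1, each on the other strand. The strand setting of the counts is not given in the sources used here, so reads of these overlaps cannot be told apart.

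Library depth was 8.17 to 13.33 M counts with 1 transcript kept per gene. The 5 macrophage markers (Adgre1, Csf1r, Cd68, Itgam, Lyz2) summed to 11660 to 18240 CPM (counts scaled to library size with TMM factors), so the cells carried the labelled identity in each library. Markers of neutrophils and their precursors (S100a8, S100a9, Ngp, Ltf, Elane) summed to 1.91 to 7.34 CPM in the 10 libraries with SGC0946, against 23.9 to 45.1 CPM in the 10 with DMSO, and Elane was at 0 counts in the SGC0946+GW3965 and DMSO+LPS groups. Their part in the inhibitor's effects on the 9 genes was not tested. Markers of B cells, T and NK cells and dendritic cells summed to at most 3.08 CPM, stromal markers to at most 0.596 CPM without LPS and 8.995 CPM with it, and the erythroid markers were at 0 counts. The title word "reanalyzed" is carried by mice 1 to 3 of the DMSO and DMSO+GW3965 groups. Without stimulus it is separable from the vehicle only through DMSO mouse 4, and with GW3965 the word and the vehicle cannot be told apart. No DMSO+LPS library carries the word, so within the DMSO arm it is separable from LPS only through DMSO mouse 4 as well. This limit extends to the LPS calls of the DMSO arm and to the difference of LPS responses between the arms. Bulk libraries also do not tell fewer cells of a kind from less RNA per cell.

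Per unit of transcript length, Apoe was the most abundant of the 9 genes in every group. It encodes apolipoprotein E, which macrophages secrete as a cholesterol acceptor. In unstimulated cells its level was 719.7 ± 180 RPKM (reads scaled to transcript length and library size, as deposited by the authors) with SGC0946 and 468 ± 41.5 RPKM with DMSO (SD, n = 4 each). Pltp, the phospholipid transfer protein, came next at 436 ± 70.6 and 319 ± 39.0 RPKM. Smpdl3a, a secreted phosphodiesterase of the acid sphingomyelinase family, followed at 192 ± 13.8 and 155 ± 9.54 RPKM. These 3 genes kept their ranks in unstimulated and LPS-treated cells of both arms, though with LPS the ranges of Apoe and Pltp overlapped. With GW3965 Abca1 and Abcg1 moved above Smpdl3a, at 256 ± 43.6 and 253 ± 17.2 RPKM in SGC0946+GW3965 cells and 234 ± 7.48 and 226 ± 10.3 RPKM in DMSO+GW3965 cells (SD, n = 3 each). The ranges of these 2 transporters overlapped with each other in both arms.

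By the transcript with the most counts, the receptors stood low in the order. Nr1h2 was at 37.6 ± 2.20 RPKM in SGC0946 and 39.2 ± 2.52 RPKM in DMSO cells, and Nr1h3 at 4.82 ± 0.595 and 4.32 ± 0.536 RPKM (SD, n = 4 each). Nr1h3 was the lowest of the 9 genes in all groups but those with LPS, where Arl4c was lower. Around Nr1h2 the order was not resolved, since its range overlapped with that of Lpcat3 in DMSO cells and of Arl4c in SGC0946 cells. For Nr1h2, Nr1h3 and Apoe, which have several transcripts in the deposited table, the values are those of the transcript with the most counts. That transcript held 25.2% of the gene's counts for Nr1h2 (4 transcripts), 50.3% for Nr1h3 (2) and 25.2% for Apoe (4). Whether a read was counted for each transcript or split between them is not given. The place of these genes against those with 1 transcript therefore depends on this choice.

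**Figure D1:**
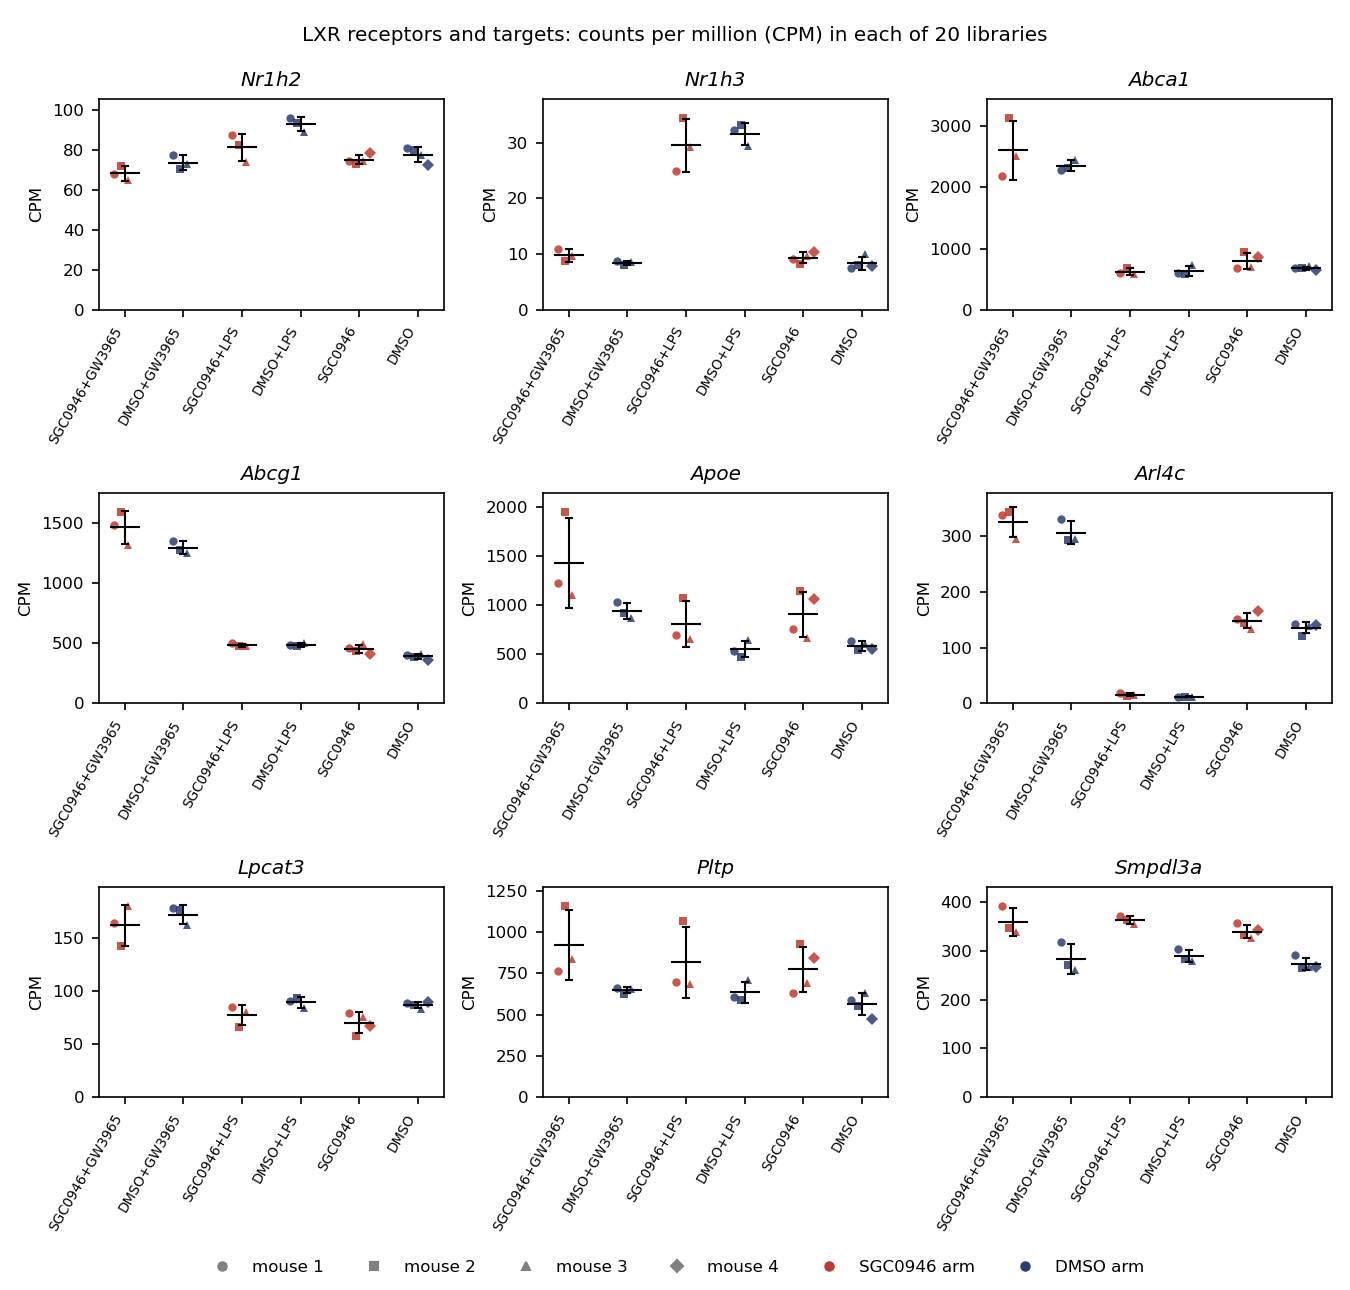
CPM of each of the 9 genes in all 20 libraries, on linear axes that start at 0, by group, with 1 point per library, shaped by mouse, a horizontal line for the group mean and error bars of 1 SD. Abca1, Abcg1, Arl4c and Lpcat3 are highest in the GW3965 groups of both arms, Nr1h3 is highest and Arl4c lowest in the LPS groups, and Smpdl3a is higher with SGC0946 than with DMSO in each of the 3 conditions.

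The agonist GW3965 raised the 2 cholesterol transporters and 2 further targets in both arms. Abca1 reached 2189, 3138 and 2511 CPM in mice 1 to 3 of the SGC0946+GW3965 group, against 687, 936, 693 and 862 CPM in mice 1 to 4 of the SGC0946 group. In the vehicle arm it was at 2285, 2327 and 2457 CPM with GW3965 and at 680.5, 674, 709 and 647 CPM without. No library without the agonist came near the lowest one with it. The log2 change was 1.72 ± 0.12 with SGC0946 and 1.80 ± 0.12 with DMSO (SE; edgeR quasi-likelihood test with Benjamini-Hochberg adjustment, adjusted p = 4.63e-09 and 2.39e-09). Abcg1 moved by a like amount and more evenly. Its levels were 1481, 1595 and 1322 CPM in SGC0946+GW3965 cells and 458, 436, 494 and 413 CPM in SGC0946 cells. They were 1356, 1278 and 1252 CPM in DMSO+GW3965 cells and 405, 387, 414 and 365 CPM in DMSO cells. That is a log2 change of 1.70 ± 0.07 with SGC0946 and 1.72 ± 0.07 with DMSO (edgeR adjusted p = 7.54e-13 and 6.13e-13).

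Arl4c, a small GTPase of the ARF-like family with a role in vesicle transport, stood at 338, 343 and 295 CPM in SGC0946+GW3965 cells and at 151, 144, 133 and 166 CPM in SGC0946 cells. It stood at 330.2, 293 and 294 CPM in DMSO+GW3965 cells and at 143, 121, 139 and 139.9 CPM in DMSO cells. Agonist and unstimulated libraries did not overlap in either arm, with log2 changes of 1.13 ± 0.08 with SGC0946 and 1.17 ± 0.08 with DMSO (edgeR adjusted p = 5.59e-09 and 4.15e-09). Lpcat3 encodes the acyltransferase that places polyunsaturated chains into phospholipids. It was at 164, 142 and 181 CPM in SGC0946+GW3965 cells and at 79.9, 57.5, 75.7 and 67.3 CPM in SGC0946 cells, against 178, 176 and 162 CPM in DMSO+GW3965 cells and 89.4, 87.4, 83.6 and 89.7 CPM in DMSO cells. Its log2 change was 1.22 ± 0.09 with SGC0946 and 0.98 ± 0.09 with DMSO (edgeR adjusted p = 2.43e-08 and 8.49e-07).

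In each arm 4 of 9 members were higher and none lower. In the background 2.42% of the 12013 genes tested passed with SGC0946 (1.32% higher, 1.11% lower) and 2.55% with DMSO (1.35% higher, 1.2% lower). The members were picked as LXR genes with earlier results of these data known, so their larger share is no independent result. The median log2 change of the 9 genes was 0.65 with SGC0946 and 0.69 with DMSO, beside medians of -0.003 and -0.005 over all genes tested.

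Apoe fell on either side of the threshold. In SGC0946+GW3965 cells it was at 1227, 1955 and 1105 CPM, and in SGC0946 cells at 761, 1146, 664 and 1061 CPM. In DMSO+GW3965 cells it was at 1035, 927 and 876 CPM, and in DMSO cells at 639, 542, 609 and 551 CPM. Within each mouse the log2 difference was positive, from 0.53 to 0.77 over 6 pairs. The log2 change of 0.65 ± 0.19 with SGC0946 and 0.69 ± 0.19 with DMSO did not pass (edgeR adjusted p = 0.0832 and 0.0594). With the mouse number as a replicate block it did, at 0.68 and 0.71 (edgeR adjusted p = 0.0381 and 0.0229), which makes 5 members higher in each arm. Without the block it passed in both arms when no filter on low counts was used (edgeR adjusted p = 0.0161 with SGC0946 and 0.00885 with DMSO). It also passed in the SGC0946 arm without mice 2 and 4 (0.00174) or without SGC0946+GW3965 mouse 3 (0.0496), and in the DMSO arm with library totals (0.0499) or only the compared groups in the fit (1.71e-05).

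The other 4 members did not pass with GW3965 in either arm. Smpdl3a changed by 0.08 ± 0.07 with SGC0946 and 0.05 ± 0.07 with DMSO (edgeR adjusted p = 0.618 and 0.761), and Pltp by 0.25 ± 0.16 and 0.21 ± 0.16 (adjusted p = 0.50 and 0.564). Nr1h3 changed by 0.06 ± 0.13 and 0.02 ± 0.13 and Nr1h2 by -0.14 ± 0.06 and -0.08 ± 0.06 (edgeR adjusted p = 0.289 to 0.957). Within mice Pltp was higher in all 6 pairs, by 0.05 to 0.32, and Nr1h2 was lower in all 6, with log2 differences of -0.20 to -0.02.

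**Figure D2:**
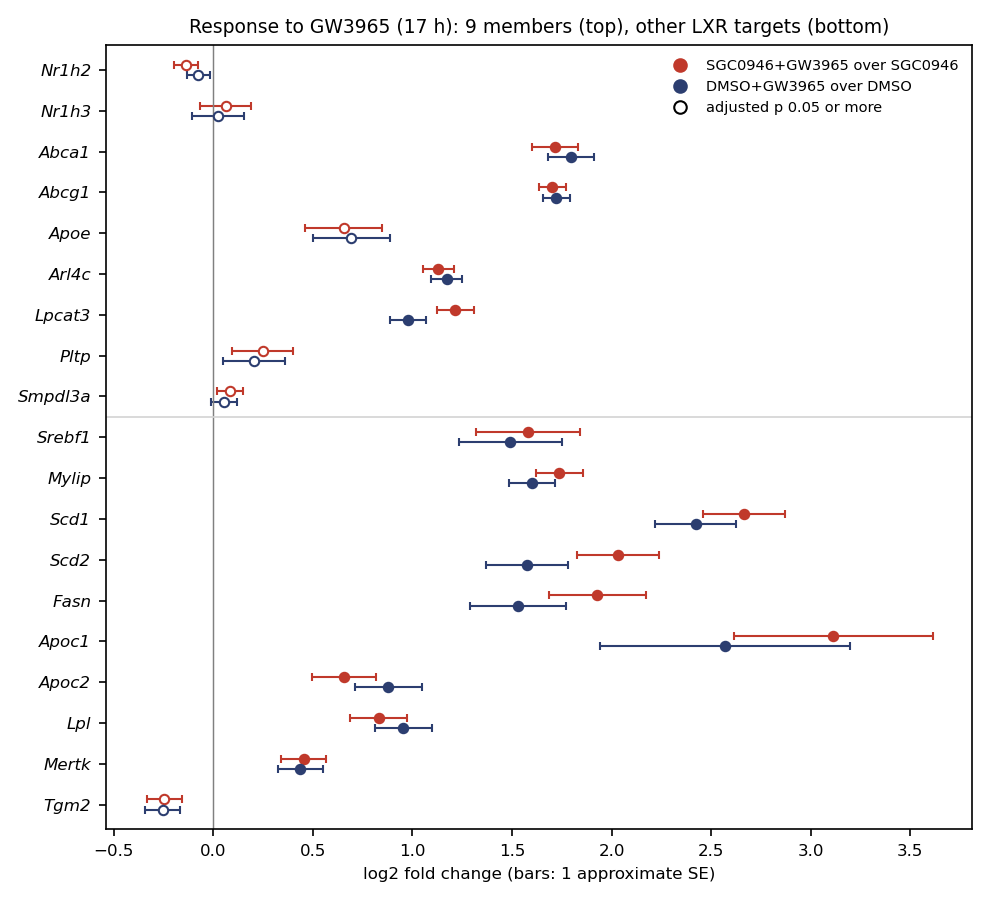
Log2 fold change of each of the 9 genes (top) and of the 10 other LXR targets tested (bottom) after GW3965 over unstimulated cells, with SGC0946 and with DMSO. Points are edgeR estimates, error bars are 1 SE, and filled symbols passed at an adjusted p under 0.05. Abca1, Abcg1, Arl4c and Lpcat3 lie between 0.98 and 1.80, and the values of the 2 arms lie within 0.24 of each other for each of the 9 genes.

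Known LXR targets outside the set rose too. Of 14 listed genes 10 could be tested, and the rest had too few counts in every group. In each arm 9 were higher and 0 lower, beside 1.32% of all genes higher with SGC0946 and 1.35% with DMSO. The median log2 change was 1.66 with SGC0946 and 1.51 with DMSO. Of the 9, Apoc1 passed the filter on low counts only through the GW3965 groups (14 to 67 counts with SGC0946, 11 to 24 with DMSO). It had 1 to 11 counts in SGC0946 and 2 to 3 in DMSO libraries, so its call adds no support. Scd1, a stearoyl-CoA desaturase, changed by 2.67 ± 0.21 and 2.42 ± 0.21. Its near copy Scd2 may share reads with it. Mylip, the ubiquitin ligase that degrades the LDL receptor, changed by 1.74 ± 0.12 and 1.60 ± 0.12, and Srebf1, which drives fatty acid synthesis, by 1.58 ± 0.26 and 1.49 ± 0.26 (edgeR adjusted p at most 0.00199 for these 3 genes in both arms). Among 9 tested genes of sterol transport and esterification, Gramd1b, an ER protein that takes up cholesterol from the plasma membrane, rose in both arms, by 0.94 ± 0.06 with SGC0946 and 0.80 ± 0.06 with DMSO (edgeR adjusted p = 4.97e-09 and 4.10e-08). Of the 10 RXR and coregulator genes tested, 0 passed in either arm with edgeR (0 with SGC0946 and 3 with DMSO at an unadjusted p under 0.05).

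The genes whose group means followed those of Abca1 most closely, over the 6 groups and among 5380 genes whose group means spanned 1 or more on the log2 scale, were Mylip (Pearson r = 0.991), Scd1 (0.985), Lipn (0.977), Apoc1 (0.976) and Dmpk (0.964). For Abcg1 they were Lipn (0.996), Scd1 (0.994), Mrgpra6 (0.980), Lbp (0.964) and Apoc1 (0.960). These are likenesses of level over 6 means that share libraries, and Lipn, Apoc1, Dmpk, Mrgpra6 and Lbp were at 12.8 CPM or less in each group.

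Whether SGC0946 changed the response to the agonist was tested as the difference of the responses, SGC0946 minus DMSO. For Abca1 it was -0.08 ± 0.16, for Abcg1 -0.02 ± 0.10, for Arl4c -0.04 ± 0.11, for Apoe -0.04 ± 0.28 and for Lpcat3 0.24 ± 0.13. With edgeR 0 of 9 members passed, 0 had an unadjusted p under 0.05, and 0 passed with DESeq2 or limma-voom. In the background 0% of all genes passed this test. Lpcat3 had the largest difference of the 9, with within-mouse changes of 1.04, 1.31 and 1.26 in the SGC0946 arm and 1.00, 1.01 and 0.96 in the DMSO arm (edgeR adjusted p = 1).

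LPS changed a receptor and a target far more than the rest. Nr1h3 was at 24.9, 34.4 and 29.2 CPM in SGC0946+LPS cells, against 9.12, 8.12, 9.57 and 10.4 CPM in SGC0946 cells, and at 32.3, 33.1 and 29.3 CPM in DMSO+LPS cells, against 7.38, 8.02, 9.95 and 7.88 CPM in DMSO cells. The lowest LPS library lay above the highest unstimulated one in both arms. The log2 change was 1.66 ± 0.12 with SGC0946 and 1.93 ± 0.12 with DMSO (edgeR adjusted p = 3.03e-11 and 2.12e-12). Its levels rest on 88 to 311 counts per library. Arl4c went the other way, to 17.7, 12.9 and 15.4 CPM in SGC0946+LPS cells and to 12.3, 12.2 and 11.6 CPM in DMSO+LPS cells, against the 121 to 166 CPM of unstimulated cells given above. It fell by 3.28 ± 0.11 on the log2 scale with SGC0946 and by 3.49 ± 0.11 with DMSO (edgeR adjusted p = 2.30e-17 and 1.24e-17). This target thus rose with the agonist and fell with LPS, and both ranges stood clear of the unstimulated one.

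Abca1 and Abcg1 were less affected by LPS. Abca1 was at 598, 688 and 578 CPM in SGC0946+LPS cells and at 595, 587 and 732 CPM in DMSO+LPS cells. It passed as lower in the SGC0946 arm, at -0.36 ± 0.12 (edgeR adjusted p = 0.00909), where the ranges of the groups overlapped, and not in the DMSO arm, at -0.09 ± 0.12 (adjusted p = 0.504). Abcg1 was at 500.4, 477 and 474 CPM in SGC0946+LPS cells and at 482, 477 and 505 CPM in DMSO+LPS cells. It passed as higher in the DMSO arm, at 0.31 ± 0.07 (edgeR adjusted p = 3.21e-04), and not in the SGC0946 arm, at 0.10 ± 0.07 (adjusted p = 0.176), where the level before LPS was higher. Nr1h2 likewise passed in the DMSO arm alone, at 0.26 ± 0.06 (edgeR adjusted p = 4.62e-04), with 96.2, 93.8 and 89.1 CPM in DMSO+LPS and 81.2, 80.0, 77.5 and 72.6 CPM in DMSO cells, and had a change of 0.12 ± 0.06 with SGC0946 (adjusted p = 0.0733), which passed with DESeq2 at 0.16 (adjusted p = 0.0313).

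None of these contrasts between the arms passed as a difference of LPS responses, SGC0946 minus DMSO. The differences were -0.21 ± 0.10 for Abcg1 (edgeR adjusted p = 0.700), -0.27 ± 0.16 for Abca1, -0.14 ± 0.08 for Nr1h2, -0.26 ± 0.17 for Nr1h3 and 0.21 ± 0.16 for Arl4c. With edgeR 0 of 9 members passed, 1 (Abcg1) had an unadjusted p under 0.05, and 0 passed with DESeq2 or limma-voom. Of all genes 0.00832% passed. The 2 arms' LPS responses have no library in common, but each uses the unstimulated cells of its arm.

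LPS moved most of the transcriptome, and 74.6% of all genes passed with SGC0946 (35.8% higher, 38.8% lower) and 74.1% with DMSO (35.4% higher, 38.7% lower). Set beside that, 3 of 9 members (1 higher, 2 lower) and 4 of 9 (3 higher, 1 lower) is a smaller share. Scaling mattered here. With library totals in place of TMM factors, the median log2 change of all genes with LPS was -0.81 with SGC0946 and -0.80 with DMSO, in place of -0.07 in both. All 9 members then passed in both arms, Nr1h3 as higher (0.92 and 1.20) and the other 8 as lower. The directions of Nr1h2, Abcg1, Lpcat3, Pltp and Smpdl3a flipped, and those of Nr1h3, Abca1, Apoe and Arl4c did not. Relative to the median of all genes under that scaling, Abcg1 was at 0.17 with SGC0946 and 0.38 with DMSO, Nr1h2 at 0.19 and 0.33, and Abca1 at -0.29 and -0.02.

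**Figure D3:**
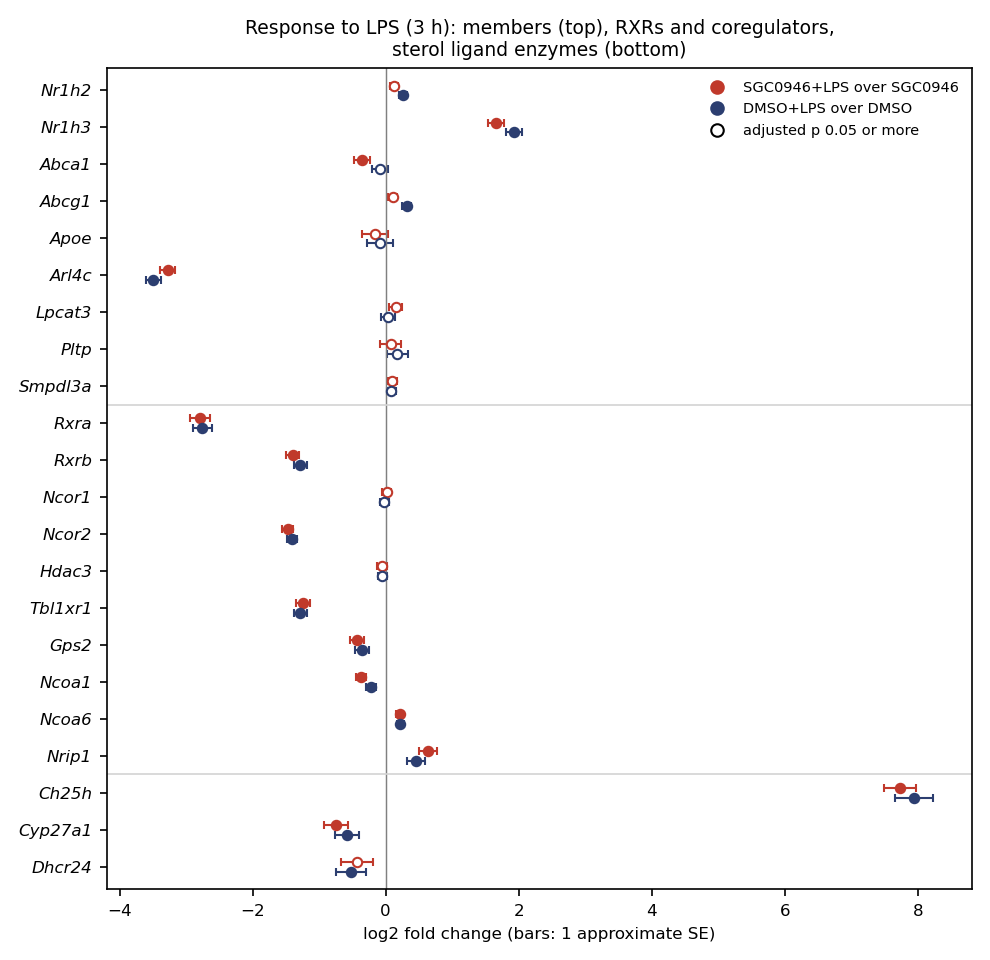
Log2 fold change after LPS over unstimulated cells, with SGC0946 and with DMSO. The 9 genes are at the top, followed by the 10 RXR and coregulator genes tested and the 3 tested enzymes that make or remove ligands. Points are edgeR estimates with TMM scaling, error bars are 1 SE, and filled symbols passed at an adjusted p under 0.05. Nr1h3 lies at 1.66 and 1.93, Arl4c at -3.28 and -3.49, and the other 7 members between -0.36 and 0.31. With library totals in place of TMM the signs of Nr1h2, Abcg1, Lpcat3, Pltp and Smpdl3a turn negative.

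Of 11 listed RXR and coregulator genes 10 were tested with LPS, and 2 passed as higher, 6 as lower and 2 not at all in each arm, a share near the 74.1% and 74.6% of all genes that passed. Rxra, the main heterodimer partner in macrophages, had 7.88 ± 1.41 CPM in SGC0946+LPS and 55.0 ± 8.09 CPM in SGC0946 cells, which is -2.79 ± 0.15, and at 8.70 ± 1.42 CPM in DMSO+LPS and 59.3 ± 3.12 CPM in DMSO cells, a change of -2.76 ± 0.14 (SD, n = 3 and 4; edgeR adjusted p = 1.69e-13 and 1.22e-13). Rxrb, another RXR, changed by -1.40 ± 0.10 with SGC0946 and -1.28 ± 0.10 with DMSO (edgeR adjusted p = 3.01e-11 and 9.80e-11). Of the 3 tested enzymes that make or remove ligands, 1 passed as higher and 1 as lower with SGC0946, and 1 as higher and 2 as lower with DMSO. Ch25h, which makes 25-hydroxycholesterol, was at 78.3 ± 19.4 CPM in SGC0946+LPS and 0.358 ± 0.0854 CPM in SGC0946 cells, and at 39.9 ± 2.40 CPM in DMSO+LPS and 0.152 ± 0.106 CPM in DMSO cells. It passed the filter on low counts only through the LPS groups (427 to 818 counts with SGC0946, 269 to 381 with DMSO). Unstimulated libraries had 3 to 6 counts with SGC0946 and 1 to 4 with DMSO, so the Ch25h call with LPS adds no support in either arm. Cyp27a1, which makes another oxysterol, went down. It was at 38.55 ± 3.96 CPM in SGC0946+LPS and 64.8 ± 14.2 CPM in SGC0946 cells, and at 28.4 ± 3.1 CPM in DMSO+LPS and 42.7 ± 3.23 CPM in DMSO cells. Of the other LXR targets 3 of 10 were higher and 3 lower in each arm, also not above the share over all genes. Mylip was lower (-0.43 ± 0.13 with SGC0946 and -0.48 ± 0.13 with DMSO) and Srebf1 higher (0.90 ± 0.27 and 0.97 ± 0.26; edgeR adjusted p at most 0.00614 for both genes). The rise of Srebf1 was uneven between mice, with 204, 72.3 and 170.3 CPM in SGC0946+LPS mice 1 to 3 and 86.0, 70.3 and 86.2 CPM in the same SGC0946 mice. In DMSO+LPS mice 1 to 3 it had 236, 84.99 and 232 CPM and in DMSO mice 1 to 3 it had 95.4, 84.7 and 96.2 CPM, so mouse 2 was nearly level with its unstimulated cells in both arms.

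The group means of Nr1h3 were followed most closely by Slc26a2, E230013L22Rik, Maff, Plaur and Med13 (Pearson r = 0.999 or above over the 6 group means). The LPS groups stand apart from the other 4 for each of these genes, so the likeness describes mainly that contrast. Tnf and Il1b, which served to check the stimulus, rose with LPS in both arms by 8.53 ± 0.17 or more on the log2 scale.

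In unstimulated cells Apoe, Pltp and Smpdl3a passed as higher with SGC0946 and Lpcat3 as lower. These are 4 of 9 members, beside 8.72% of all genes that passed (4.55% higher, 4.18% lower). The count of members ran from 0 to 5 over 20 alternatives, and the calls of Apoe, Pltp and Lpcat3 depended on single libraries, as given below. The median log2 change of the 9 was 0.20, beside -0.004 over all genes. Apoe was at 761, 1146, 664 and 1061 CPM in SGC0946 mice 1 to 4 and at 639, 542, 609 and 551 CPM in DMSO mice 1 to 4. The groups did not overlap, but mice 2 and 4 stood well above mice 1 and 3 in the SGC0946 arm. The log2 change was 0.63 ± 0.18 (edgeR adjusted p = 0.0329). Pltp was at 634, 929.5, 695 and 847 CPM with SGC0946 and at 589.6, 553, 634 and 476 CPM with DMSO, a change of 0.46 ± 0.14 (edgeR adjusted p = 0.0495), and SGC0946 mouse 1 lay within the DMSO range. Lpcat3 was at 79.9, 57.5, 75.7 and 67.3 CPM with SGC0946 and at 89.4, 87.4, 83.6 and 89.7 CPM with DMSO, a change of -0.32 ± 0.09 (edgeR adjusted p = 0.0263), again with mice 2 and 4 farthest from the DMSO libraries.

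The division between mice was seen again under the stimuli, where only mouse 2 stands for its side, since mouse 4 has no stimulated library. The within-mouse log2 difference of Apoe, SGC0946 over DMSO, was 1.08 and 0.94 in unstimulated mice 2 and 4, against 0.25 and 0.12 in mice 1 and 3. In mouse 2 it was 1.17 with LPS and 1.08 with GW3965, and in mice 1 and 3 it was 0.37 and 0.03 with LPS and 0.24 and 0.33 with GW3965. That of Pltp in mouse 2 was 0.86 with LPS and 0.89 with GW3965, above the -0.04 to 0.35 of mice 1 and 3. For Lpcat3 mouse 2 was at -0.49 with LPS and -0.31 with GW3965, below the -0.16 to 0.16 of mice 1 and 3, and for Abca1 it was at 0.23 and 0.43, above their -0.34 to 0.03. In the unstimulated DMSO cultures the order was the opposite for Apoe and Pltp, with mice 2 and 4 below mice 1 and 3. The macrophage markers Csf1r and Adgre1 were also higher in mice 2 and 4 of the SGC0946 group, at 2548 and 2489 CPM for Csf1r, against 1984 and 1834 CPM in mice 1 and 3. The 5 macrophage markers together summed to 12550 to 17010 CPM in SGC0946 and 15050 to 16710 CPM in DMSO cells. Their part in the results was not tested.

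The calls of Apoe, Pltp and Lpcat3 depended on single libraries. Each was lost when SGC0946 mouse 2 or mouse 4 alone was left out (edgeR adjusted p = 0.0812 to 0.179), and when some single DMSO libraries were (0.0510 to 0.155). Without both mice, which stand out for these very genes, the changes were 0.29 for Apoe, 0.24 for Pltp and -0.16 for Lpcat3, smaller by the choice of the mice. With a term for the title word, which rests on DMSO mouse 4, 0 of the 4 calls remained with edgeR (adjusted p = 0.0948 to 0.282). The changes were then 0.72 for Apoe, 0.70 for Pltp, 0.34 for Smpdl3a and -0.36 for Lpcat3, no smaller than without the term. The call of Pltp was also lost with the stricter filter on low counts (edgeR adjusted p = 0.0509) and with the sum of transcripts (0.0618). That of Lpcat3 was lost with library totals (edgeR adjusted p = 0.0523).

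Smpdl3a was the member with the steadiest effect of the inhibitor. Though listed as an LXR target, it did not pass with GW3965 in either arm, as given above. In unstimulated cells it was at 357, 332, 327 and 342 CPM with SGC0946 and at 292, 265, 268 and 268 CPM with DMSO. With LPS it was at 372, 363 and 355 CPM in SGC0946+LPS and at 303, 284 and 280.4 CPM in DMSO+LPS cells. With GW3965 it was at 393, 347 and 339.9 CPM in SGC0946+GW3965 and at 318, 272 and 261 CPM in DMSO+GW3965 cells. The groups did not overlap in any of the 3 conditions. Within a mouse the log2 difference lay between 0.29 and 0.38 in all 10 pairs, and mice 2 and 4 (0.33 to 0.35) did not stand apart from mice 1 and 3 (0.29 to 0.38). The changes were 0.31 ± 0.06 without stimulus, 0.33 ± 0.07 with LPS and 0.34 ± 0.07 with GW3965 (edgeR adjusted p = 0.00273, 0.00718 and 0.00716), about a 1.24-fold, 1.26-fold and 1.27-fold higher level. The unstimulated call held without each single library and without mice 2 and 4. With GW3965 the call was lost without SGC0946+GW3965 mouse 1, DMSO+GW3965 mouse 2 or DMSO+GW3965 mouse 3 (edgeR adjusted p = 0.0517 to 0.0600). It was also lost with only the compared groups in the fit (edgeR adjusted p = 0.0943), where the change was 0.35. With the term for the title word it was lost too (edgeR adjusted p = 0.221), at a change of 0.38. That term rests on unstimulated DMSO mouse 4, since with GW3965 the word and the vehicle cannot be told apart. The 0.38 therefore cannot show that the size held.

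Among the transporters, Abcg1 averaged 450.3 ± 34.9 CPM with SGC0946 and 393 ± 21.8 CPM with DMSO (SD, n = 4 each), a change of 0.20 ± 0.06 that lay close to the threshold (edgeR adjusted p = 0.0571). It passed in 7 of 20 alternatives, namely with the replicate block (edgeR adjusted p = 0.0264), the DESeq2 test (0.0228), limma-voom (0.0403), library totals (0.0339) and the stricter filter (0.0451), and without SGC0946 mouse 4 (0.0412) or mice 2 and 4 (0.0132). Abca1 was at 795 ± 125 and 678 ± 25.5 CPM, a change of 0.23 ± 0.11 (adjusted p = 0.201). The receptors changed by 0.16 ± 0.12 (Nr1h3) and -0.05 ± 0.05 (Nr1h2), and Arl4c by 0.13 ± 0.07, and none of them passed (edgeR adjusted p = 0.310 to 0.631).

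Under either stimulus Smpdl3a was the 1 member that passed, and it was higher both times, beside 7.13% of all genes with LPS (3.86% higher, 3.26% lower) and 3.64% with GW3965 (2.24% higher, 1.4% lower). Apoe was at 693, 1076 and 656 CPM in SGC0946+LPS and at 537, 478 and 642 CPM in DMSO+LPS cells. Its change of 0.55 ± 0.21 with LPS and of 0.59 ± 0.21 with GW3965 was close in size to that without stimulus and did not pass (edgeR adjusted p = 0.125 and 0.130). Pltp was at 765, 1161 and 837 CPM in SGC0946+GW3965 and 663, 627 and 658 CPM in DMSO+GW3965 cells, which do not overlap, with a change of 0.51 ± 0.17 (edgeR adjusted p = 0.103). With GW3965 Abca1 and Abcg1 changed by 0.15 ± 0.12 and 0.18 ± 0.07, and with LPS by -0.04 ± 0.12 and -0.01 ± 0.07, none of which passed. The comparisons share no library across conditions, but they share mice.

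**Figure D4:**
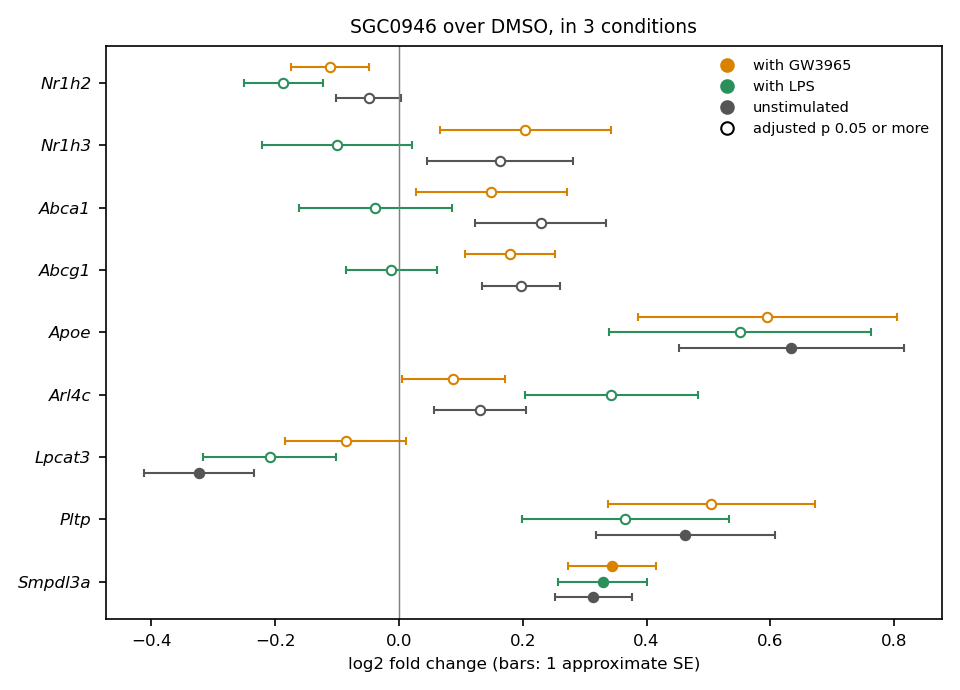
Log2 fold change of each of the 9 genes for SGC0946 over DMSO in unstimulated, LPS-treated and GW3965-treated cells. Points are edgeR estimates, error bars are 1 SE, and filled symbols passed at an adjusted p under 0.05. Smpdl3a lies at 0.31 to 0.34 in the 3 conditions, Apoe and Pltp lie higher with wider errors, and Lpcat3 lies below 0.

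In the other pathway lists together, 5 of 32 tested genes passed without stimulus (15.6%, beside 8.72% of all genes), 5 of 32 with LPS (15.6%, beside 7.13%) and 1 of 32 with GW3965 (3.12%, beside 3.64%). Of the 10 other LXR targets tested, 0 passed with edgeR in any of the 3 conditions (3 without stimulus, 1 with LPS and 1 with GW3965 at an unadjusted p under 0.05), and Srebf1 and Mylip changed by -0.24 ± 0.25 and -0.08 ± 0.11 in unstimulated cells. Of the coregulators Tbl1xr1, part of a corepressor complex, rose by 0.39 ± 0.09 without stimulus and by 0.43 ± 0.11 with LPS (edgeR adjusted p = 0.00589 and 0.0198). Cyp27a1, which makes 27-hydroxycholesterol, had 64.8 ± 14.2 CPM with SGC0946 and 42.7 ± 3.23 CPM with DMSO, a change of 0.61 ± 0.15 (edgeR adjusted p = 0.0150). It divided by mouse as well, at 75.0 and 78.6 CPM in SGC0946 mice 2 and 4 and 56.7 and 49.0 CPM in SGC0946 mice 1 and 3, against 38.6 to 45.6 CPM in DMSO cells. After LPS Ch25h was higher with SGC0946 by 0.97 ± 0.16 (edgeR adjusted p = 4.97e-04), at 78.3 ± 19.4 CPM in SGC0946+LPS and 39.9 ± 2.40 CPM in DMSO+LPS cells (SD, n = 3 each). Exons of Ch25h overlap another gene over more than 10% of their length. Of sterol transport genes, Gramd1b and Scarb1, the HDL receptor SR-BI, were lower in unstimulated SGC0946 cells, by -0.31 ± 0.06 and -0.34 ± 0.09 (edgeR adjusted p = 0.00250 and 0.0185). Scarb1 was lowest in SGC0946 mice 2 and 4, at 104 and 112 CPM, against 136 and 127 CPM in SGC0946 mice 1 and 3. With LPS the inhibitor raised Cav1 (caveolin) by 0.57 ± 0.16 and Soat1, which esterifies cholesterol, by 0.26 ± 0.07, and Npc1, which exports cholesterol from lysosomes, changed by -0.27 ± 0.05 (edgeR adjusted p = 0.0326, 0.0198 and 0.00145). With GW3965 Cav1 was the 1 gene called, at 1.35 ± 0.560 CPM in SGC0946+GW3965 and 0.225 ± 0.127 CPM in DMSO+GW3965 cells (edgeR adjusted p = 0.0254). These levels rest on 11 to 23 counts per library in SGC0946+GW3965 and 1 to 5 in DMSO+GW3965 cells. With LPS Cav1 had 867 to 1364 counts in the SGC0946 arm and 535 to 989 in the DMSO arm. The call with GW3965, and with it the 1 of 32, therefore adds no support.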

How the data were processed

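The submitters' processing notes name the build mm10, STAR 2.5.2b and SAMtools 1.3.1 for the 20 libraries. The counting program is not given in the sources used here, nor is its use of strand. In 2 tables the authors deposited counts per RefSeq transcript and, for the same 35745 transcripts, RPKM values, which equal count over length over a number fixed per library (largest relative deviation 0.000211 over 3904 transcripts). For this work identifiers were joined to RefSeq symbols (35440 named, and the 305 unnamed held 1.17% of counts and were left out), and the transcript with the highest total was kept per symbol. Genes were tested with edgeR 4.0.16 (R 4.3.3, quasi-likelihood F test, TMM, count minimum 10, all 20 libraries, 1 mean per group) and called where the p adjusted by Benjamini-Hochberg over 12013 genes was under 0.05, in 9 comparisons. SE is the log2 fold change over the square root of F. The test was checked on simulated counts. TMM factors were 0.686 to 0.716 with LPS and 1.14 to 1.19 otherwise. Libraries of a group differed by more than sampling noise (chi-square per gene 3.09 to 14.4), so no library was counted as a copy.

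The numbers pair the samples, because the deposited sample sheet assigns libraries to mice. Deviations of same-numbered libraries from their group means correlated by 0.06 to 0.50 (46 pairs), and those of different numbers by -0.41 to 0.26 (120 pairs). Alternatives were DESeq2 1.42.0, limma 3.58.1, other scalings, filters and transcript choices, the replicate block, a term for the word reanalyzed, only the groups compared, and leaving out libraries. The 9 genes, the gene lists and the rule for naming (all 9 genes, up to 3 called genes per list, direction and comparison, and 5 genes by likeness) were chosen with earlier results of these data known. Some genes of these lists are not reported here by name.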

Additional observations from a re-analysis of the deposited data

Results flagged for a closer look

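Of 18 groups of 4 libraries checked for a library far from the others (9 genes in each of the unstimulated groups), 1 was flagged. Smpdl3a in DMSO mouse 1 was at 292 CPM, above the 265, 268 and 268 CPM of the other DMSO mice, with a gap of 0.884 of the group's range, past Dixon's limit for 4 values. About 1 in 20 such groups is flagged by chance. Mouse 1 also had the highest Smpdl3a level in the SGC0946 group, at 357 CPM.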

How the results depend on the processing

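Counts of called members were within 1.5 times of the reported ones except as follows. With library totals in place of TMM, 9 members passed with LPS in each arm (3 as reported with SGC0946 and 4 with DMSO), and the log2 changes of Nr1h2 (-0.62 with SGC0946, -0.47 with DMSO), Abcg1 (-0.64, -0.42), Lpcat3 (-0.59, -0.69), Pltp (-0.67, -0.56) and Smpdl3a (-0.64, -0.65) turned negative, which follows from the shift of all genes. For SGC0946 against DMSO, 0 members passed with the term for the word reanalyzed, 2 without SGC0946-arm replicates 2 and 4, and 1 to 4 when single replicates were left out (4 as reported). For SGC0946+GW3965 against DMSO+GW3965, 3 passed with no filter on low counts, 0 with that term, 0 with only the groups compared, and 0 to 1 when single replicates were left out (1 as reported). For SGC0946+LPS against DMSO+LPS, 1 to 2 passed when single replicates were left out. With the replicate block Abcg1 passed without stimulus (0.20, edgeR adjusted p = 0.0264) and Apoe passed with GW3965 in both arms (0.68 and 0.71), no other call of a member changed, and 703 genes in place of 437 passed for SGC0946+GW3965 against DMSO+GW3965 and 531 in place of 306 for DMSO+GW3965 against DMSO. Calls of members gained in single alternatives, beside those of Abcg1 and Apoe given with their results, were those of Apoe and Pltp for SGC0946+GW3965 against DMSO+GW3965 with no filter on low counts (edgeR adjusted p = 0.0446 and 0.0351), of Nr1h2 for SGC0946+LPS against DMSO+LPS without SGC0946+LPS replicate 1 (0.0425), and, with LPS in the SGC0946 arm, of Lpcat3 without SGC0946+LPS replicate 2 (0.0382) and of Nr1h2 with DESeq2 size factors (0.0267), the DESeq2 test (0.0313) and without SGC0946+LPS replicate 3 (0.0117). Library totals with LPS are as above.

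Signs also turned for values near 0 that had not passed. With the term for the word reanalyzed these were Nr1h2 in SGC0946 against DMSO (0.05) and with GW3965 (0.021), Apoe with LPS in the DMSO arm (0.002), Nr1h3 with GW3965 in the DMSO arm (-0.002), and the difference of responses of Smpdl3a to LPS (-0.013) and of Abcg1 to GW3965 (0.015). With the stricter filter Abcg1 was at 0.004 for SGC0946+LPS against DMSO+LPS. Without SGC0946-arm replicates 2 and 4, Abca1 (-0.00) and Lpcat3 (0.01) turned for SGC0946+GW3965 against DMSO+GW3965, as did the differences of responses of Smpdl3a to LPS (-0.001) and of Apoe to GW3965 (0.016). When single replicates were left out, the difference of GW3965 responses ranged from -0.24 to 0.032 for Abca1, -0.086 to 0.051 for Abcg1, -0.34 to 0.12 for Apoe, -0.093 to 0.023 for Arl4c, -0.055 to 0.11 for Nr1h3, -0.16 to 0.16 for Pltp and -0.038 to 0.12 for Smpdl3a. The difference of LPS responses ranged from -0.35 to 0.048 for Apoe, -0.34 to 0.011 for Pltp and -0.018 to 0.049 for Smpdl3a. In DMSO cells the response to GW3965 ranged from -0.027 to 0.12 for Nr1h3 and -0.036 to 0.11 for Smpdl3a, and that to LPS from -0.21 to 0.01 for Apoe and -0.001 to 0.08 for Lpcat3. In SGC0946 cells Nr1h3 ranged from -0.028 to 0.14 with GW3965 and Pltp from -0.16 to 0.19 with LPS. SGC0946+GW3965 over DMSO+GW3965 ranged from -0.001 to 0.26 for Abca1 and -0.17 to 0.005 for Lpcat3, and SGC0946+LPS over DMSO+LPS from -0.12 to 0.07 for Abca1, -0.039 to 0.012 for Abcg1 and -0.23 to 0.011 for Nr1h3. The cause was not tested. Over all genes, 37 counts of called genes moved by over 1.5 times and 145 did not. The lowest depth behind a member is the 84 counts of Arl4c with LPS.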
